A study of Mus musculus with 24 samples.

Results

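Hox genes encode homeodomain transcription factors that set identity along the head-to-tail axis of the embryo, and in mammals they stand in the HoxA, HoxB, HoxC and HoxD clusters in the order in which they are used along that axis. Where they are not expressed, Polycomb repressive complex 2, whose catalytic subunit is EZH2, marks them with trimethylation of histone H3 at lysine 27 (H3K27me3), and KDM6 demethylases remove the mark. The cerebellum arises from the most anterior hindbrain, ahead of the limit of Hox expression. The members described here are all protein-coding genes of the mouse annotation (build mm10) whose symbol is Hoxa, Hoxb, Hoxc or Hoxd followed by a number. There were 39 of them among 21938 protein-coding genes, with 11 in HoxA, 10 in HoxB, 9 in HoxC and 9 in HoxD.

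The data were lists of H3K27me3 peaks from CUT&RUN, which releases and sequences the DNA next to an antibody bound to the mark. Cerebellar granule neurons (CGNs), the small excitatory neurons of the cerebellum, were cultured from pooled litters of CD-1 IGS mice of postnatal days 6 to 8, and cytosine arabinoside (AraC, 1 µM), which acts on dividing cells, was given at day in vitro (DIV) 2. Cultures were harvested at DIV1, DIV3, DIV5 or DIV7 with no drug, the first of these before AraC was due. Others received the EZH2 inhibitor GSK-126 (5 µM), the KDM6 inhibitor GSK-J4 (1 µM) or the DMSO solvent of each experiment (here DMSO_GSK-126 and DMSO_GSK-J4) at DIV1 and were harvested at DIV5. Each of the 8 groups had 3 libraries labelled as biological replicates, 24 in all, and the methods describe a replicate as neurons from pooled cerebella of litters. Whether libraries of different groups shared a preparation is not given in the sources used here. A promoter was the 6001 bp from 3 kb before to 3 kb after the annotated 5′ end of a gene. Fold enrichment is the peak caller's ratio of reads over its own local background, and a region without a peak was below the caller's threshold, which does not show that the mark was missing. Read depth was unknown because no read counts were among the values used, so neither counting intervals nor detection floors could be given.

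The lists held 4740 to 22832 peaks per library and 247296 in all, and the longest, DIV3 replicate 3, stood apart from the rest. Median fold enrichment per library lay between 3.61 and 4.17. Promoters of genes used by granule neurons had a peak in at least 1 library for 4 of 10 genes (40%, against 38.0% of all promoters), namely Neurod1 in 5 libraries, Rbfox3 in 2 and Zic2 and Reln in 1 each, and none had one in 12 or more. Of 15 genes of other cerebellar cells 8 had one, and 7, among them Gfap, Aqp4 and Pecam1, had none.

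The Hox clusters carried isolated peaks of low fold enrichment. Most of the places they fell on had a peak in a single library, while the place in Hoxa13 had one in 11 libraries. With all libraries counted, there were about as many as their length alone would hold. The 4 clusters, taken from the first to the last Hox gene of each, lay at chr6:52155590-52260880 (HoxA, 105.291 kb), chr11:96194316-96368256 (HoxB, 173.941 kb), chr15:102921103-103036852 (HoxC, 115.75 kb) and chr2:74668310-74765142 (HoxD, 96.833 kb). Together they held 48 peaks from 18 of the 24 libraries, of which 19 lay in HoxA, 17 in HoxB, 4 in HoxC and 8 in HoxD. Their 491.815 kb made up 0.0180% of the genome, which by length alone corresponds to 44.6 of all peaks. One library contributed 17 of them, and without DIV3 replicate 3 there were 31 peaks in 17 libraries. The mean was then 2.74 ± 2.26 (SD, n = 23) peaks per Mb of the clusters, against 3.58 ± 1.42 per Mb of the genome. Over all 24 libraries these means were 4.07 and 3.78, so the match with length rested on that library. The 48 peaks fell on 31 separate places, and 8 of those places had a peak in at least 2 libraries while 23 had one in a single library.

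Of the recurrent places, 4 are printed here because they are where a call was made again in another library, and because they differ in base composition. Each is written 5′ to 3′ on the strand of the gene nearest to it, from the mm10 (GRCm38) genome, with CG dinucleotides in capitals. The first is the middle of the place inside Hoxa13 (chr6:52259097-52259396, minus strand, 11 libraries, 11 CG in 300 bp). The second lies in the first part of Hoxd13 (chr2:74668744-74668849, plus strand, 2 libraries, 12 CG in 106 bp). The third lies in the long stretch without coding genes between Hoxb13 and Hoxb9 (chr11:96220412-96220514, plus strand, 2 libraries, 1 CG), and the fourth in an intron of Hoxc4 (chr15:103033390-103033562, plus strand, 2 libraries, 2 CG in 173 bp). The last 3 are the bases common to both libraries.
Hoxa13 place: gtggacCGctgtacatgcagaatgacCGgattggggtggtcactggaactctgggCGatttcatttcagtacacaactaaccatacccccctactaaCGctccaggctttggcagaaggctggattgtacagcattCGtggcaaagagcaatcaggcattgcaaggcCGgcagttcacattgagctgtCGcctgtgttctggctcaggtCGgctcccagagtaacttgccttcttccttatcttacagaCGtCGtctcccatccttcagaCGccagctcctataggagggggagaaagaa
Hoxd13 place: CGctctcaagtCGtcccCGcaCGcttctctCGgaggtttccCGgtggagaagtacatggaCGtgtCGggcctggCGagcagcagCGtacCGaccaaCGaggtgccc
Hoxb13 to Hoxb9 place: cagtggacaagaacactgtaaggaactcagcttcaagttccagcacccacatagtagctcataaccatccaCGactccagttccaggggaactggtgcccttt
Hoxc4 place: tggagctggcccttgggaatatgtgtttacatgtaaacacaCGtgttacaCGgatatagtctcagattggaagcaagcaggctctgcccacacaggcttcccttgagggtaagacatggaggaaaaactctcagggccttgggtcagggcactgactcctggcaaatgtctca

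**Figure D1:**
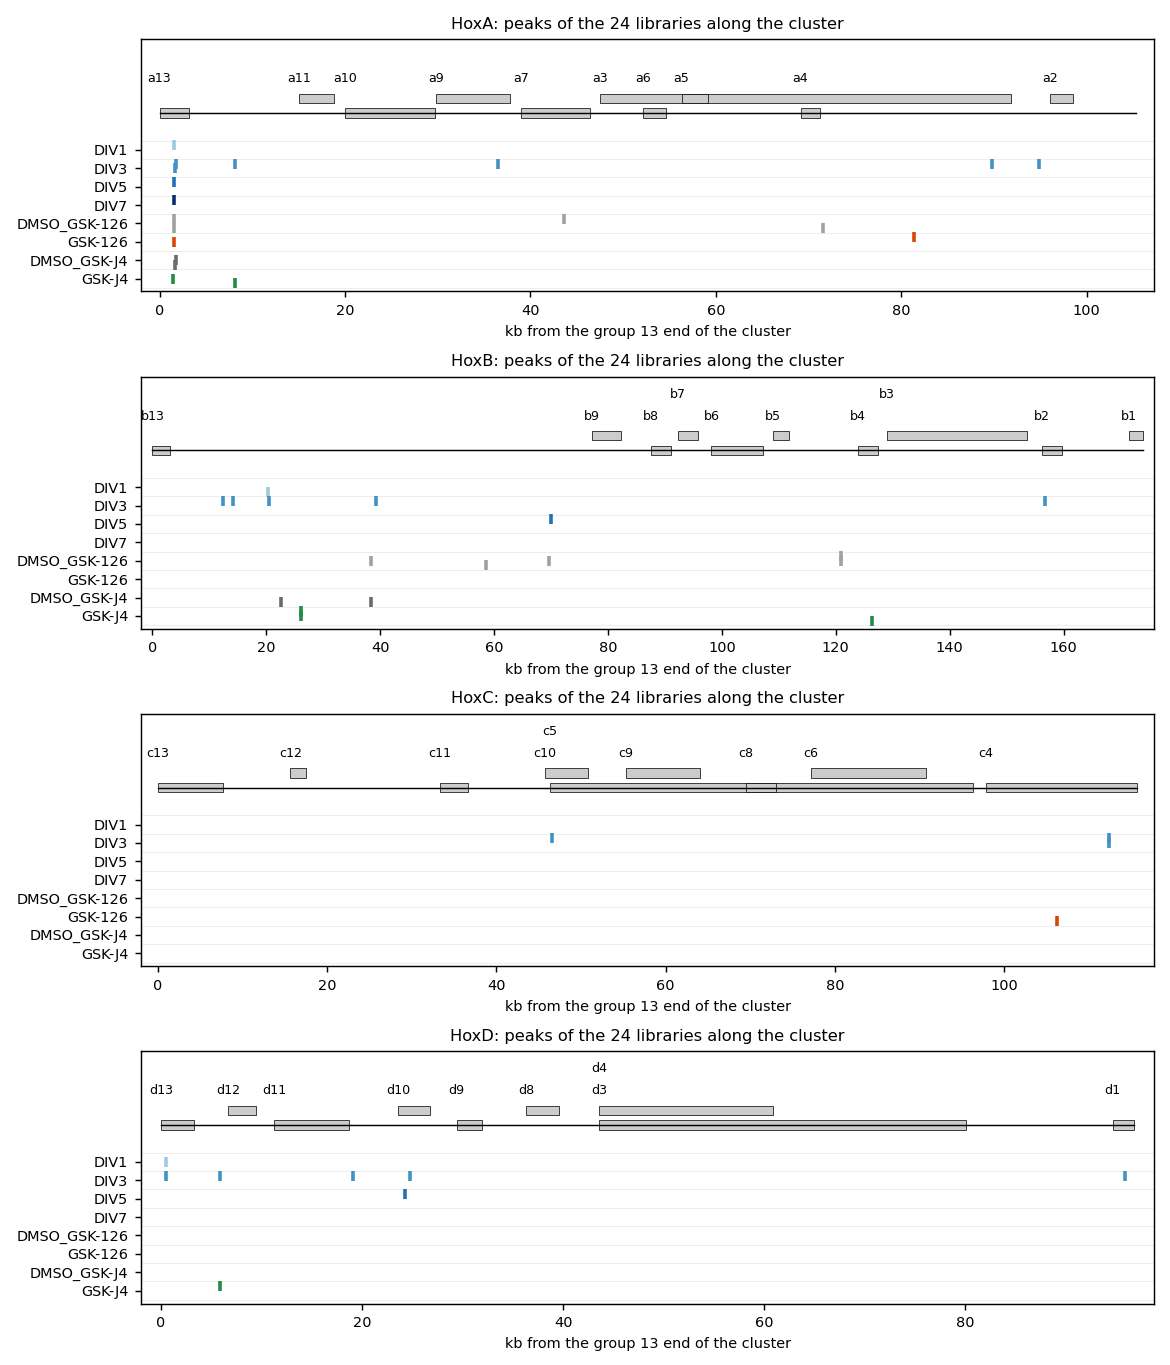
Map of the 4 Hox clusters, with distance in kb from the group 13 end on the horizontal axis, the genes reported by name as grey boxes (letters and numbers name them) and every peak of the 24 libraries as a tick in the row of its group, the 3 replicates stacked within a row. Hoxa13 is the one place with ticks in all 8 groups, and most ticks of HoxC and HoxD belong to DIV3.

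Calls at promoters were few and uneven across the 39 members. A peak touched the promoter window of 13 Hox genes in at least 1 library and of 26 in none, so 33.3% of the members had one, against 38.0% of all promoters (8345 of 21938). Only 5 members had a peak in 2 or more libraries. None had one in 12 or more libraries, which 2074 of all promoters had, and none in all 24, which 285 had. Mean coverage over the libraries was 0.0848% of a Hox promoter and 0.859% of promoters in general. Without DIV3 replicate 3, a peak was found at 7 Hox promoters (17.9%) against 37.1% of all promoters, and mean coverage was 0.0504% against 0.815%.

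Hoxa13, the most posterior gene of HoxA and a regulator of the digits and the genital tract, had the most calls of any member. Its promoter (gene ENSMUSG00000038203.18, minus strand, 5′ end at 52260880) had a peak in 11 of 24 libraries. In the time course, DIV1 replicate 3 covered 3.18% of the window, DIV3 replicates 2 and 3 covered 0.933% and 4.92%, DIV5 replicate 3 covered 2.57%, and DIV7 replicate 3 covered 3.28%. Replicate 3 therefore had the peak at all 4 days, replicate 2 at 1 day and replicate 1 at none. In the drug experiments, DMSO_GSK-126 replicates 1 and 3 covered 2.75% and 1.10%, GSK-126 replicate 2 covered 1.98%, DMSO_GSK-J4 replicates 1 and 2 covered 2.85% and 2.28%, and GSK-J4 replicate 2 covered 3.52%. The remaining 13 libraries had no peak there, so that every group held both libraries with and libraries without a call and all groups overlapped.

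All 11 Hoxa13 peaks fell on one stretch of 479 bp (chr6:52259008-52259486), with centres 1.50 to 1.74 kb downstream of the 5′ end. It lies in an intron of Hoxa13 and runs into the exon that follows. The intron held the larger part of 10 of the 11 peaks, and the peak of DMSO_GSK-J4 replicate 2 was mostly exon. A core of 24 bp (chr6:52259276-52259299), inside the Hoxa13 sequence printed above, was shared by 9 of the 11 libraries. Their fold enrichment was 2.35 in DIV1 replicate 3, 2.41 and 2.60 in DIV3 replicates 2 and 3, 2.67 in DIV5 replicate 3 and 2.71 in DIV7 replicate 3. In the drug experiments it was 2.49 and 2.70 in DMSO_GSK-126 replicates 1 and 3, 2.77 in GSK-126 replicate 2, 2.97 and 2.88 in DMSO_GSK-J4 replicates 1 and 2, and 3.39 in GSK-J4 replicate 2. The lists that called Hoxa13 held 5401 to 22832 peaks (median 12245) and those that did not held 4740 to 17142 (median 7858). The part of list length in this call was not tested.

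The other genes of group 13, the most posterior paralogues, differed widely in how often they were called. Hoxd13, which patterns the digits with Hoxa13, had a promoter peak in 4 libraries, whereas Hoxb13 and Hoxc13 had none. The Hoxd13 peaks lay at 2 places. One was in its first exon (chr2:74668719-74668910), with a fold enrichment of 2.42 in DIV3 replicate 3 and 2.30 in DIV1 replicate 2. The other was upstream and outside the cluster as measured here, centred 949 bp before the 5′ end in DIV3 replicate 3 (2.48), 835 bp before it in DMSO_GSK-126 replicate 3 (2.64) and 958 bp before it in GSK-126 replicate 2 (2.93). Hoxd13 thus covered 0.517% ± 1.27 (SD, n = 24) of its window and Hoxa13 1.22% ± 1.55, the highest means of HoxD and HoxA. The mean of Hoxa13 stood at the 87.7th percentile of all promoters.

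Among the posterior genes of groups 9 to 13, 5 of 16 had a promoter peak, in 20 pairs of gene and library. Of these pairs 11 were of Hoxa13 alone. For scale, 38.0% of all promoters had a peak in at least 1 library. Hoxd12 had one just upstream of its 5′ end in DIV3 replicate 3 (fold enrichment 2.32) and GSK-J4 replicate 3 (2.56). Hoxd10, which takes part in limb and spinal motor neuron patterning, had one in DIV5 replicate 3 (2.40) and in DIV3 replicate 3 (2.29) at another place in the gene. Hoxc10 had one in DIV3 replicate 3 (2.31), a peak that also lay in the window of Hoxc5 because the annotated Hoxc5 transcript begins beside Hoxc10. No peak was found in any library at the promoters of Hoxa9, Hoxa10, Hoxa11, Hoxb9, Hoxc9, Hoxc11, Hoxc12, Hoxd9 or Hoxd11, beside the group 13 genes Hoxb13 and Hoxc13 named above.

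The central genes of groups 5 to 8 had the fewest calls, with 2 of 11 genes in 2 pairs of gene and library, beside 38.0% of all promoters. These were Hoxa7 and the shared Hoxc5 peak, both in DIV3 replicate 3, and Hoxa7 had a fold enrichment of 2.30. Hoxa5, Hoxa6, Hoxb5, Hoxb6, Hoxb7, Hoxb8, Hoxc6, Hoxc8 and Hoxd8 had no peak in any library.

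Of the anterior genes of groups 1 to 4, whose expression reaches into the hindbrain, 6 of 12 had a peak, in 8 pairs of gene and library. Differences between the posterior, central and anterior genes were not tested. Hoxb4 had one in 3 libraries, upstream of the gene in DMSO_GSK-126 replicates 2 and 3 (fold enrichment 2.37 and 2.35) and inside it in GSK-J4 replicate 1 (3.01). The last of these also lay in the window of Hoxb3, so it counted for both genes. Hoxd1, Hoxa2 and Hoxb2 each had one peak in DIV3 replicate 3 (2.42, 2.29 and 2.37), and Hoxa4 had one in DMSO_GSK-126 replicate 1 (2.39). Hoxa3, Hoxb1, Hoxc4, Hoxd3 and Hoxd4 were among those with none. The lowest mean coverage in each cluster was therefore 0 and shared by these and the genes above, and the highest was 0.158% for Hoxb4 in HoxB and 0.141% for Hoxc10 and Hoxc5 in HoxC. The even-skipped homologues Evx1 and Evx2, which stand beyond the group 13 ends of HoxA and HoxD, had no promoter peak either.

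The annotated 5′ end of some members is that of a long transcript that begins far from the coding gene, so the windows were also set on RefSeq starts where these were at hand. Such starts were found for 22 members, 10 of which had a peak against 8 of the same genes in the windows above. The genes gained were Hoxa9, with 1 library, and Hoxc4, with 2. Hoxc4 is the gene whose intron holds the Hoxc4 sequence printed above, with fold enrichment of 2.25 in DIV3 replicate 2 and 2.46 in DIV3 replicate 3.

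By fold enrichment, Hox peaks were among the lowest of their libraries. Their median fold enrichment was 2.41 (2.25 to 3.97), and all 48 were below the median of the library they came from. Ranked by fold enrichment among all peaks of the same library, the median Hox peak stood at percentile 1.44 (0.128 to 46.9), and 39 of the 48 were below the 10th percentile. Without DIV3 replicate 3 the median percentile was 0.995. Their width was 162.5 bp in the median (50 to 414), at a median percentile of 41.1 by width in their libraries, whose own medians were 146 to 195 bp. In fold enrichment they stood low, in width they did not. Their −log10 q was 1.02 to 1.81, where the lists began at 1.00. Gene bodies held 9 peaks that were mostly exon and 18 that were mostly intron, and 21 were mostly intergenic.

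**Figure D2:**
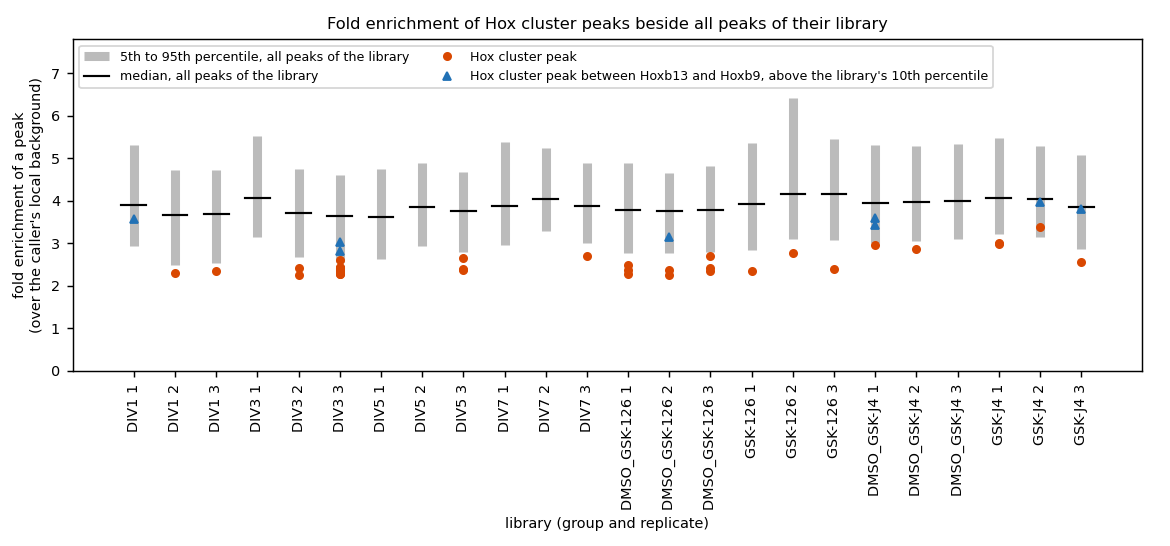
Fold enrichment over the caller's local background (vertical axis) for each library (horizontal axis, group and replicate). Grey bars run from the 5th to the 95th percentile of all peaks of the library, black lines are its median, orange points are Hox cluster peaks and blue triangles those between Hoxb13 and Hoxb9 above the 10th percentile. Every Hox point lies below its library's median, and most orange points lie below the grey bar.

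The low fold did not go with an equally low significance. By −log10 p the median Hox peak stood at percentile 24.8 of its library (1.07 to 76.2). Among peaks of the same library whose −log10 p was within 0.25 of its own, the median Hox peak stood at percentile 1.88 by fold enrichment (0.169 to 49.1), and all 48 were below the middle of that set. In a Poisson comparison of reads with a local background, a lower fold at the same p goes with a higher background. The background itself was not among the deposited values, and its part in these ranks was not tested.

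The peaks of higher rank lay almost all in one stretch of HoxB. Of the 9 Hox peaks above the 10th percentile, 8 were in the gap between Hoxb13 and Hoxb9, 20.3 to 39.2 kb from Hoxb13, and came from 6 libraries. Their fold enrichment was 2.82 to 3.97 and their percentile 11.8 to 46.9. The highest were those of GSK-J4 replicates 2 and 3 at the Hoxb13 to Hoxb9 place printed above, at 3.97 and 3.81. The ninth was the Hoxa13 peak of GSK-J4 replicate 2, at percentile 11.03. The gap held 13 of the 17 HoxB peaks in all, and the 5 at lower rank lay closer to Hoxb13 or to Hoxb9.

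These 8 peaks also had a lower median CpG content than the 39 peaks below the 10th percentile. As observed over expected CG dinucleotides it was 0.171 (0 to 0.395), against 0.446 (0 to 1.11) for the 39, and the ranges overlapped. The 5 gap peaks of lower rank had 0.117 to 0.538, and all 13 gap peaks had a median of 0.198. Fold rank and place in the cluster were thus not told apart. Of the sequences printed above, the Hoxd13 place (12 CG) and the Hoxb13 to Hoxb9 place (1 CG) differ in this way, but the Hoxc4 place is also poor in CG (2 in 173 bp) and its peaks stood at percentiles 0.318 and 2.79. The 8 and the 39 peaks were divided by fold enrichment after the values were seen, so no test was made.

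Hox promoters are rich in CpG, with a median of 0.468 observed over expected against 0.323 for all promoters. When all promoters were divided by this ratio into 10 classes of equal size, 30 of the 39 Hox promoters were in the upper 3 classes (9, 10 and 11). Among all promoters of those classes, 46.8%, 50.0% and 50.1% had a peak in at least 1 library and mean coverage was 1.23%, 1.13% and 0.803%. The Hox values of 33.3% and 0.0848% were below all of these. Fold rank fell with CpG content over promoters in general, from a median percentile of 60.8 in the lowest class to 21.5 in the highest. Over the peaks in the windows of all 39 Hox genes, of every class together, it was 1.15.

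Beside other gene lists, the share of Hox promoters with any peak lay within the range of 16.7% to 53.3%, and the calls were repeated in fewer libraries than those of the most called genes of several lists. These counts are a description with no test. Of 30 fate factors of other lineages, 9 had a peak in at least 1 library, among them the muscle regulator Myod1 in 18 libraries, Twist1 in 7, Gata4 in 6 and Nkx6-1 in 4. Of 8 ParaHox and Evx genes, the closest relatives of Hox genes, 3 had one. Cdx1 and Cdx4, posterior factors that act upstream of Hox genes, were called in 21 and 19 libraries with mean coverage of 6.98% and 6.24%, and Gsx2 in 1. The 8 genes of other cerebellar cells with a peak included the endothelial gene Cldn5 in all 24 libraries (mean coverage 18.9%), Mbp and Pvalb in 14 each, Sox10 in 11 and Calb1 in 10.

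The shares of genes that work with or on Hox genes, of granule neuron genes and of ribosomal protein genes lay on both sides of the 38.0% of all promoters. Of 9 TALE homeodomain genes, whose products are Hox cofactors, 3 had a peak (33.3%). Pbx3 and Pknox1 had a peak in 1 library each and Pknox2 in 4, while Meis1, Meis2, Meis3, Pbx2 and Pbx4 were among those with none. Of 6 Polycomb and demethylase genes (16.7%), Ezh2 had one in 1 library and Ezh1, Eed, Suz12, Kdm6a and Kdm6b had none. The share was 40% for granule neuron genes, as above, and 45% for ribosomal protein genes, an active control, with 27 of 60.

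The fold ranks of those peaks separated the lists further. A peak was counted once for each window it touched, so those shared by Hoxb4 and Hoxb3 and by Hoxc10 and Hoxc5 each entered 2 times. In the Hox windows, 31 peaks so counted had a median percentile of 1.15 by fold enrichment in their libraries, and 96.8% of them were below the 10th. Over all promoters the median was 35.1 and 16.5% were below the 10th percentile, from 79905 peaks. Fate factors (80 peaks, median 10.7, 50% below), ParaHox and Evx genes (62 peaks, 8.63, 58.1%) and genes of other cerebellar cells (112 peaks, 10.4, 48.2%) lay between. Granule neuron genes (9 peaks) and TALE genes (6 peaks) stood at 57.7 and 60.2, and ribosomal protein genes (141 peaks) at 79.5, with none below the 10th percentile in these 3 lists. Peaks of one gene in several libraries share its sequence and are not independent.

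**Figure D3:**
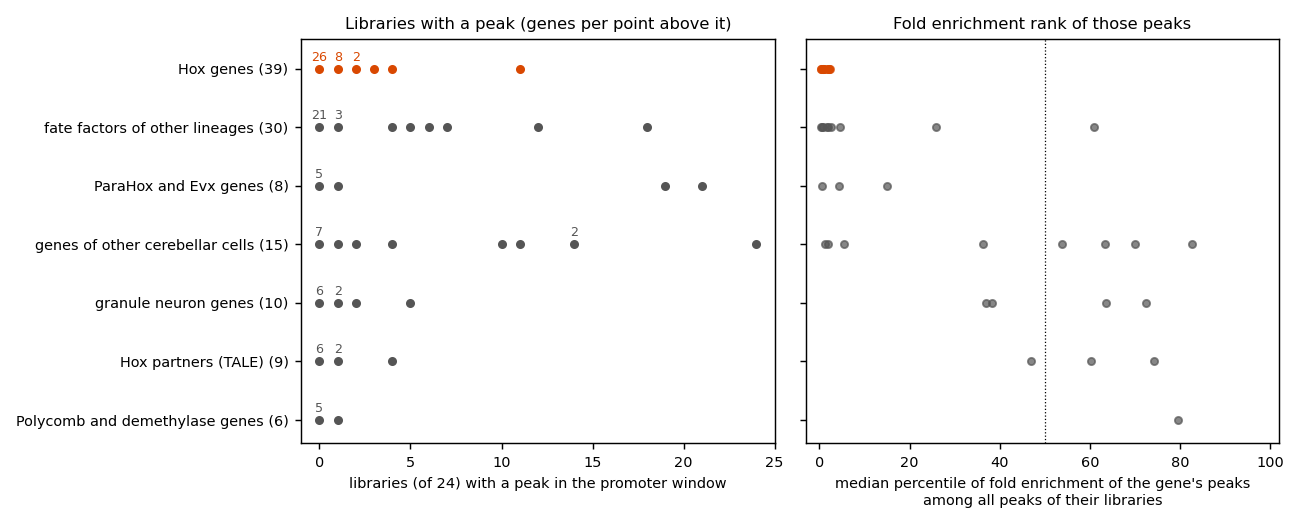
For each gene list (rows, number of genes in parentheses), the left panel shows the number of libraries with a promoter peak for each gene, with the number of genes at a point printed above it where it is over 1, and the right panel the median percentile by fold enrichment of the gene's peaks among all peaks of their libraries. Hox genes (orange) lie at 0 to 11 libraries and at median percentiles up to 2.26, while Cdx1, Cdx4, Myod1 and Cldn5 are called in 18 to 24 libraries.

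The chromosome beside the clusters carried more peaks than the clusters did. Within 100 kb on both sides, 255 peaks were found and 0.282% ± 0.321 (SD, n = 24, 0 to 1.43%) of the sequence was covered per library. Inside the clusters it was 0.0639% ± 0.127 (0 to 0.641%), against 0.0974% ± 0.0528 of the genome. The flanks were covered more than the inside in 23 of 24 libraries. The exception was GSK-J4 replicate 1, which had no peak in the flanks. Without DIV3 replicate 3 the inside was 0.0388% ± 0.0316, the flanks 0.232% and the genome 0.0911%.

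The contrast was not equally strong at every edge. In the first 50 kb outside, mean coverage was 0.278% on the anterior side and 0.0976% on the Hoxa13 side of HoxA, against 0.117% within it, so the posterior side did not exceed the cluster. HoxB had 0.470% and 0.347% on the Hoxb1 and Hoxb13 sides against 0.0526% within. HoxC had 0.205% and 0.303% on the Hoxc4 and Hoxc13 sides against 0.0251%, and HoxD had 0.561% and 0.138% on the Hoxd1 and Hoxd13 sides against 0.0732%. In this first step, 10 and 4 of 24 libraries were above the inside on the anterior and Hoxa13 sides of HoxA. The number was 14 and 15 on the Hoxb1 and Hoxb13 sides, 9 and 7 on the Hoxc4 and Hoxc13 sides and 16 and 6 on the Hoxd1 and Hoxd13 sides. The Hoxc13 side also varied widely (SD 0.830, highest 3.93%). Without DIV3 replicate 3 the Hoxc13 side was at 0.145% and the insides of HoxC and HoxD at 0.0120% and 0.0229%. The insides of HoxA and HoxB were then at 0.0841% and 0.0381%, with the Hoxa13 side at 0.0619%. In the second 50 kb, with all libraries, HoxD had 0.0549% and 0.0513% on the Hoxd1 and Hoxd13 sides. HoxA had 0.0275% there on the Hoxa13 side. These 3 lay below the insides of their clusters, and the other second steps lay above.

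**Figure D4:**
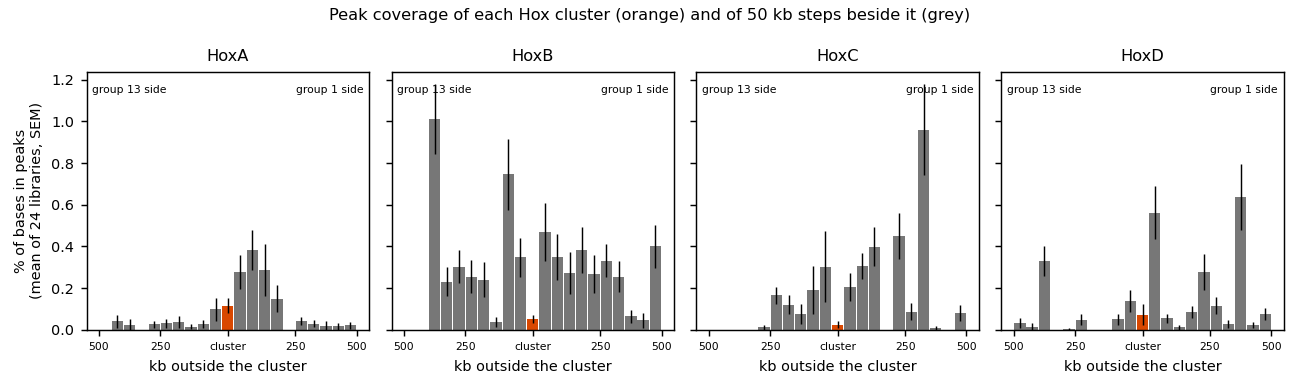
Percentage of bases in peaks (vertical axis, mean of 24 libraries, bars 1 SEM) for each Hox cluster (orange) and for 50 kb steps outside it up to 500 kb (grey), with the group 13 side to the left and the other end to the right (Hoxc4 for HoxC). The clusters lie at 0.0251% to 0.117%, below both neighbouring steps except for the Hoxa13 side of HoxA.

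Across the days in culture the clusters had few peaks at any time. Peaks within the clusters numbered 1, 1 and 1 in the DIV1 libraries, 0, 2 and 17 at DIV3, 0, 0 and 3 at DIV5 and 0, 0 and 1 at DIV7, in the order of replicates 1 to 3. DIV3 replicate 3 was far above all others, and it held the longest list (22832 peaks). It was also the highest for its list length, with 7.45 Hox peaks per 10000 against at most 3.62 in any other library. Per 10000 peaks of a library this made 1.06 ± 0.658 (SD, n = 3) at DIV1, 3.03 ± 3.91 at DIV3, 0.644 ± 1.12 at DIV5 and 0.338 ± 0.586 at DIV7, with overlap between all days. The same library had the highest coverage of each cluster, with 1.23% of HoxD, 0.865% of HoxA, 0.387% of HoxB and 0.325% of HoxC.

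Between inhibitor and DMSO cultures, the clusters held at most 3 peaks in any library. DMSO_GSK-126 libraries had 3, 3 and 3 peaks and GSK-126 libraries 1, 1 and 1, so these groups did not overlap, but their lists held 13255, 17142 and 14475 peaks with DMSO and 8723, 5401 and 7839 with the EZH2 inhibitor. Per 10000 peaks the values were 2.03 ± 0.259 (1.75 to 2.26) with DMSO and 1.42 ± 0.375 (1.15 to 1.85) with GSK-126, and these overlapped. DMSO_GSK-J4 libraries had 3, 1 and 0 peaks and GSK-J4 libraries 2, 2 and 2, or 1.69 ± 1.82 and 2.67 ± 0.613 per 10000, with overlap.

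In HoxB the DMSO_GSK-126 libraries covered 0.136% ± 0.106 and the GSK-126 libraries none of the cluster, with 3 of the 5 DMSO peaks in the gap between Hoxb13 and Hoxb9 and 2 upstream of Hoxb4. Peaks of the whole list also covered less of the genome with GSK-126, at 0.0574% ± 0.0172 (0.0392 to 0.0733) against 0.135% ± 0.0177 (0.121 to 0.155) with DMSO. With lists cut to a common length no HoxB peak was left in either group. In HoxB the GSK-J4 libraries covered 0.0696% ± 0.0160 and their DMSO libraries 0.0391% ± 0.0677, with overlap.

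To compare groups by a test, each library was cut back, within its experiment, to the peaks of highest −log10 p until all lists covered as many bases as the shortest, and the covered percentage of every promoter with coverage in at least 3 libraries was tested with limma. At that length 7 Hox cluster peaks from 5 libraries were left. No Hox promoter met the condition in any comparison, so none was tested. Over all promoters, limma called 18 of 1795 (1%) at an adjusted p below 0.05 for DIV7 against DIV1, 64 of 939 (6.82%) for GSK-126 against DMSO and 0 of 1524 (0%) for GSK-J4 against DMSO, where 73 had an unadjusted p below 0.05. These background counts were not stable. Without DIV7 replicate 1 the 18 became 0, and the 64 became 0 with the replicate number as a block and when replicate 2 of DMSO_GSK-126 or either replicate 1 or 3 of the GSK-126 group was left out. The single steps DIV3 against DIV1, DIV5 against DIV3 and DIV7 against DIV5, and the difference between both drug responses, likewise held no Hox promoter.

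With all deposited peaks, Hoxa13 was the one Hox promoter that could be tested, and it passed in no comparison. Its coverage was 1.06% ± 1.84 (SD, n = 3) at DIV1, 1.95% ± 2.61 at DIV3, 0.855% ± 1.48 at DIV5 and 1.09% ± 1.90 at DIV7. DIV7 minus DIV1 was 0.0333 percentage points (SE 1.81, limma adjusted p = 1), where 40 of 3585 promoters (1.12%) were called. Coverage was 0.661% ± 1.14 with GSK-126 and 1.28% ± 1.38 with DMSO. The difference was -0.622 points (SE 1.61, limma adjusted p = 0.793), where 641 of 2385 promoters (26.9%) were called, 636 of them lower with GSK-126. These lists were not cut, and those of GSK-126 were shorter than those of DMSO. At the common length, 23 of the 64 promoters called were higher with GSK-126 and 41 lower. Hoxa13 coverage was 1.17% ± 2.03 with GSK-J4 and 1.71% ± 1.51 with DMSO. That difference was -0.539 points (SE 2.30, limma adjusted p = 0.999), where 0 of 2034 (0%) were called and 31 had an unadjusted p below 0.05. Each standard error was larger than the mean coverage of both groups compared, so a loss of the whole coverage would not have been detectable.

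The same held for 10 kb bins of the genome. At the common length a single Hox bin (chr6:52250001-52260000), which holds the Hoxa13 place, was tested in GSK-J4 against DMSO, and its difference was 0.810 points (SE 0.955, limma adjusted p = 1). Its coverage came from the Hoxa13 peaks of GSK-J4 replicate 2 and DMSO_GSK-J4 replicate 1. It also came from a peak of GSK-J4 replicate 1 upstream of Hoxa11 (chr6:52252649-52252851), so the bin did not test Hoxa13 alone. Of 3783 bins, 0 (0%) were called and 5.31% had an unadjusted p below 0.05. No Hox promoter had a peak in every library of a comparison, which the test on fold enrichment requires, so none entered it.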

How the data were processed

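H3K27me3 was measured by CUT&RUN in 24 libraries of 8 groups. Per the labels and the study's methods, the authors checked reads with FastQC, trimmed them with Trimmomatic 0.38, aligned them to mm10 with STAR 2.7.2b and called broad peaks in each library with MACS2 2.1 at a false discovery rate of 0.1. bedtools 2.25.0 and DESeq2 1.36.0 are also named in the submitters' notes. The control used for the calls is not given in the sources used here. The deposited files give, for each peak, a fold enrichment (a ratio over the local background) and −log10 p and −log10 q values. No read counts were used, so the count test of the methods could not be run and read depth is unknown; the number of peaks per library is given in its place.

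Hox members, clusters (first to last gene) and promoter windows (3 kb each side) were taken from the GENCODE vM21 annotation, and RefSeq starts from a table of the GRCm38 build. Values for members use all deposited peaks. For tests, libraries were limited within each experiment to their strongest peaks by −log10 p up to the shortest list's summed length (1.11 Mb for the time course, 1.07 Mb for GSK-126, 1.40 Mb for GSK-J4), because a longer list covers more of every window. Percent coverage was fitted in limma 3.58.1 (R 4.3.3, robust eBayes, two-sided, Benjamini-Hochberg over all features with coverage in at least 3 libraries). The procedure was tried on simulated data. The changes added there were larger than the coverage of any Hox promoter in any library, so that trial does not bear on Hox features. P-values measure the spread between libraries labelled as biological replicates. Other values were computed in Python 3.11.15 with numpy 2.4.6 and drawn with matplotlib 3.10.9. The alternatives were all deposited peaks, 5 kb bins, windows of 1 kb each side, ranking by fold enrichment, a minimum −log10 q of 2, coverage in at least 1 library, the replicate number as a block, and leaving out each library.

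The members and gene lists were chosen with earlier results of these data known. Named genes were Hoxa13, the members with the highest and lowest mean coverage in each cluster, members without a peak, Evx1 and Evx2, except for a few genes that are not reported here by name; members with a peak in any library were added because they are few, after their values were seen. The DMSO libraries of the GSK-J4 experiment were known from their sample titles. The titles of the other DMSO libraries name no inhibitor, and these were assigned to GSK-126 from the study design.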

Additional observations from a re-analysis of the deposited data

How the results depend on the processing

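No Hox promoter or bin was called under any of the 133 combinations of result and setting, but only 19 of them held a Hox feature that could be tested, and at most 10 features. The calls over all promoters, which stand as background, did move. For DIV7 against DIV1 there were 18, and 40 with all deposited peaks, 4 at a −log10 q of at least 2, 5 when ranked by fold enrichment, 39 with all peaks and coverage in at least 1 library and 44 with all peaks and the replicate block. For GSK-126 against DMSO there were 64, and 641 with all deposited peaks, 4 at a −log10 q of at least 2, 469 with all peaks and coverage in at least 1 library, 0 with the replicate block and 591 with all peaks and the replicate block. For GSK-J4 against DMSO there were 0, and 1 at a −log10 q of at least 2. Leaving out 1 library gave 0 to 33 calls for DIV7 against DIV1 (33 without DIV1 replicate 1, 0 without DIV7 replicate 1 and 5 without DIV7 replicate 3, and within 1.5 times of 18 for the other 9) and 0 to 22 for GSK-126, where each of the 6 libraries moved the count. The replicate block left 18 for DIV7 against DIV1, 0 for GSK-J4 and 0 Hox calls throughout. Same-numbered libraries correlated at -0.0688 to 0.157 in the time course, -0.0585 to 0.0930 in the GSK-126 and 0.0272 to 0.0335 in the GSK-J4 experiment. Libraries of other numbers and groups correlated at -0.134 to 0.0658, -0.103 to 0.0627 and -0.0370 to 0.00271. The ranges overlapped in the first 2 experiments, and in the GSK-J4 experiment all same-numbered pairs were higher. Whether a shared number stands for a shared preparation was not tested. The libraries closest to another of their own number were 7 of 12, 3 of 6 and 6 of 6. The cause of these moves was not tested.

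Differences in cluster coverage, in percentage points, moved from or to 0 or turned their sign in these cases. With all deposited peaks HoxA went from 0 to 0.0019 and HoxD from 0 to -0.0575 for DIV7 minus DIV1, HoxB from 0 to -0.136 and HoxC from 0 to 0.0395 for GSK-126, and HoxD from 0 to 0.0596 for GSK-J4. HoxA for GSK-126 went from 0.0377 to -0.0269 with all deposited peaks, so its direction turned, and to 0 without GSK-126 replicate 2. HoxA for GSK-J4 went from 0.0769 to 0.0336 with all deposited peaks. At a −log10 q of at least 2 no Hox peak was left, so that these and HoxB, at 0.0498 for GSK-J4 and -0.0211 for DIV7 minus DIV1, became 0. The last also became 0 without DIV1 replicate 1. All of these lay within the spread of overlapping groups, except HoxB for GSK-126 with all deposited peaks. At the common length 7 Hox peaks were left, 5 when ranked by fold enrichment, and 0 at a −log10 q of at least 2. Without DIV3 replicate 3, chosen after seeing the data, the 48 Hox peaks became 31, the 13 promoters 7 and the median fold percentile 0.995. The combinations with all deposited peaks were also added after seeing the data. Read depth is unknown, and the number of peaks per library limits what could be called.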

Other observations

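Low fold ranks at promoters were not limited to Hox genes. Of 2691 promoters with a peak in at least 8 libraries, 192 had a median fold percentile below 5, Hoxa13 (11 libraries, 2.24) among them. This set was chosen after its values were seen and was not tested. In order of rank, its lowest members were mostly predicted genes with numbers for names, such as Gm10718 (16 libraries, percentile 0.102) and Gm10721 (19 libraries, 0.166). The lowest members with other names were Fcgr3 (0.299, 21 libraries), Flt4 (0.440, 9 libraries), Hs3st6 (0.577, 11 libraries), Tcf21 (0.714, 10 libraries), Phox2a (0.828, 8 libraries), Col2a1 (0.947, 10 libraries), Bmp4 (0.978, 10 libraries) and Gata5 (0.981, 12 libraries).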
